A study of Mus musculus with 8 samples.

Results

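The genes described here are 7 genes of secreted proteins in mouse embryonic stem cells (mESCs): Srgn, which encodes the proteoglycan serglycin, the galectin genes Lgals1, Lgals2, Lgals3, Lgals8 and Lgals9, and Spink1, which encodes a trypsin inhibitor. All 7 were found by symbol among the 12666 protein-coding genes listed in both expression tables of the study (13056 genes in sorted cells and 14319 in overexpressing cells). The set was not drawn blind. Srgn, Lgals2 and Spink1 were selected from the same 4 columns of values for their large rises, and the remaining galectins were added as their family, so the differences below are descriptions and stand without a test.

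The study compared 4 conditions with 2 samples each, all of a strain labelled C57BL/6(F) x 129/sv(M) and grown on gelatin in serum medium with leukemia inhibitory factor. In the first experiment, pools of 500 KLF3-GFP-positive or KLF3-GFP-negative cells were sorted and sequenced by Smart-seq2, a full-length cDNA protocol for small inputs. Both sorted populations carried a reporter in which the CAGGS promoter drives the N-terminal part of KLF3, without its DNA-binding domain, joined to GFP, with DsRed as a marker for picking colonies, so GFP marks cells in which this fusion protein is present and not the level of KLF3 itself. In the second experiment, KLF3 (KLF3-OE) or GFP (GFP-OE) was induced with doxycycline for 72 hours from the Col1a1 locus of clones that also carry R26-M2rtTA, and poly(A) RNA was sequenced. These clones had been selected on feeder cells, and how many of them were sequenced is not given in the sources used here. Each deposited column is the authors' mean of the 2 replicates in FPKM, which are fragments scaled to transcript length and to sequencing depth. The spread between replicates and the number of reads behind each value are therefore unknown, and no SD, interval or P value can stand beside any value.

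Serglycin is the core protein of a small proteoglycan whose serine-glycine repeat carries chondroitin sulfate or heparin chains. It is best known from the secretory granules of mast cells and other blood cells, where it packages proteases, and it was first cloned from a yolk sac tumour. Galectins are lectins that bind beta-galactosides, mostly the N-acetyllactosamine of branched glycans, and leave the cell without a signal peptide. Galectin-1 and galectin-2 have a single carbohydrate-binding domain, galectin-3 joins such a domain to a long N-terminal tail, and galectin-8 and galectin-9 hold a pair of domains on a linker. SPINK1 is a Kazal-type inhibitor that blocks trypsin and is made in large amounts by the acinar cells of the pancreas. KLF3, the protein marked or induced here, is a zinc-finger factor that binds CACCC elements in DNA.

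Positions in mm10 follow the deposited tables. Srgn (ENSMUSG00000020077) spans chr10:62493833-62527451 and Lgals2 (ENSMUSG00000043501) chr15:78850862-78855529. Lgals1 (ENSMUSG00000068220) follows Lgals2 on the same chromosome at chr15:78926725-78930465, 71.2 kb away. Lgals3 (ENSMUSG00000050335) spans chr14:47367751-47386160, Lgals8 (ENSMUSG00000057554) chr13:12439415-12464944 and Lgals9 (ENSMUSG00000001123) chr11:78962974-78984946. In the GENCODE M21 annotation of the same assembly, Lgals1 and Lgals3 are on the plus strand and the other 5 genes on the minus strand. The longest coding sequences there ran from 240 bases for Spink1 to 1059 bases for Lgals9.

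RefSeq start sites (GRCm38.p6) were matched for 5 of the 7 genes with 6 windows of the 250 bases before the start; Lgals1 and Spink1 were not matched. Because KLF3 binds CACCC elements, the windows were searched for CACCC on both strands, and all 6 held at least 2 matches. Among all 32851 such windows, 52.0% held at least 1 match, 21.1% at least 2 and 6.92% at least 3. The 2 windows of Srgn, which belong to different start sites, held 2 matches each, as did those of Lgals2, Lgals3 and Lgals8, and that of Lgals9 held 3. The windows of Lgals3 and Lgals8 and 1 of those of Srgn lie inside the gene spans given above. They thus precede an internal start site and not the outer end of the gene. A longer KLF-type pattern, CCNCNCCC on both strands, was absent from the windows of Srgn and Lgals2, and matched 4 times in that of Lgals3 and once each in those of Lgals8 and Lgals9, with 45.9% of all windows holding at least 1. One of the matches for Lgals3 and those for Lgals8 and Lgals9 overlapped a CACCC match. The windows shown are those of the pair of picked genes that were matched and that of Lgals8, whose difference lay above 0 in sorted and below 0 in overexpressing cells. They run 5′ to 3′ towards the RefSeq start site on the minus strand, which for Lgals8 is internal, and capitals mark CACCC or its reverse complement GGGTG. They cover chr10:62527452-62527695 for Srgn, chr15:78855530-78855779 for Lgals2 and chr13:12461739-12461988 for Lgals8. For Srgn the last 6 bases, which GENCODE places in an exon, were left out.
Srgn: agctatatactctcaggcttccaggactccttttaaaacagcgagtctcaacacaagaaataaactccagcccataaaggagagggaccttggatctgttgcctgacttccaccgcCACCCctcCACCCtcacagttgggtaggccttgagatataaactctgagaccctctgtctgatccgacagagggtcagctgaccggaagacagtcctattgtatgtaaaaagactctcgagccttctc
Lgals2: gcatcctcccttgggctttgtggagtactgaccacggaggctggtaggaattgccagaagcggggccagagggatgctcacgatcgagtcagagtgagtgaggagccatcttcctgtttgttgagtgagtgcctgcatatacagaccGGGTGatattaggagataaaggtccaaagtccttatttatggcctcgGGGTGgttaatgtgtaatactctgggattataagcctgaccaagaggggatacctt
Lgals8: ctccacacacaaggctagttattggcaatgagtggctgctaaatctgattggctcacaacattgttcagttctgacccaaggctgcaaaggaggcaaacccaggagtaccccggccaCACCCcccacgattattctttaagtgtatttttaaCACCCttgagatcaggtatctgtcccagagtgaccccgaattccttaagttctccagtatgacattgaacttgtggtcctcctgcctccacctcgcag
The matches of Srgn lie 122 to 126 and 130 to 134 bases before its start and those of Lgals8 94 to 98 and 129 to 133 bases before it, while those of Lgals2, on the opposite strand, lie at 52 to 56 and 99 to 103 bases. A match describes the letters of a window, and binding was not measured here.

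In KLF3-GFP-positive cells, the 3 picked genes stood at positions 30 (Spink1), 93 (Srgn) and 529 (Lgals2) by level among the 13056 genes listed. On the scale of log2(FPKM + 1), which understates the change of low values, differences were taken within each table where the 2 columns averaged 1 FPKM or more. Past the limit of 2-fold on this scale, 5 of the 7 genes (Srgn, Lgals2, Spink1, Lgals9 and Lgals8) were higher in KLF3-GFP-positive than in KLF3-GFP-negative cells and 0 were lower. Of all 9212 genes tested there, 13.8% were higher and 8.32% lower. The choice of genes used this contrast, so nothing is read from the count beside those shares. The median difference of the 7 genes was 1.46, and that of all genes tested was 0.03. Lgals2 and Lgals8 reached the minimum mean only through the KLF3-GFP-positive column. In pools and cultures of many cells, more cells of a type and more RNA per cell cannot be told apart.

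After induction of KLF3, 4 of the 7 genes (Spink1, Lgals2, Srgn and Lgals1) were past 2-fold higher than in GFP-OE cells and 0 were lower, in a table where 6.60% of 11179 genes tested were higher and 10.1% lower. Here too the contrast served to choose the genes. The median difference of the 7 genes was 1.72, against a median of -0.18 over all genes. That median was not at 0, and median-ratio scaling, which sets it to 0.00, turned the split of all genes to 10.4% higher and 6.22% lower. Differences in the overexpression experiment are given as deposited, and 0.18 on the log2 scale may be added to each to read it relative to the typical gene. Under that scaling a 5th gene, Lgals3, passed the limit.

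**Figure D1:**
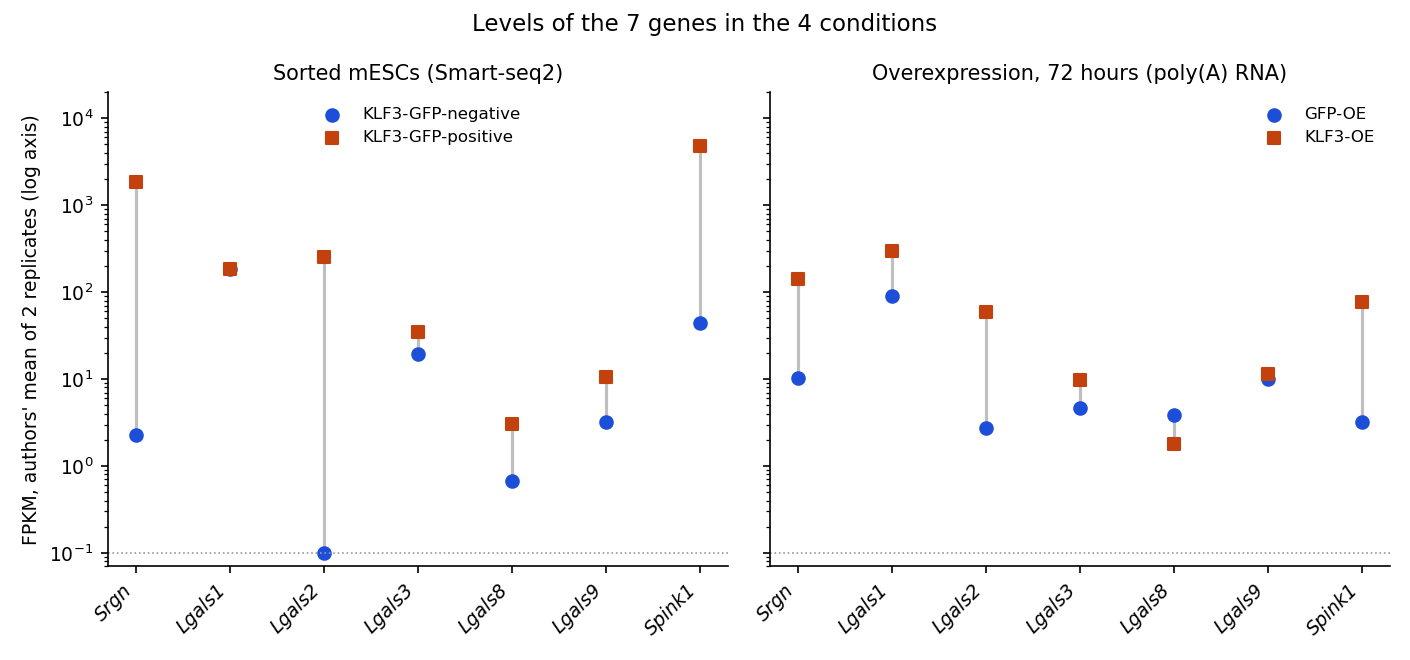
Levels of the 7 genes in FPKM (authors' means of 2 replicates, log axis) in KLF3-GFP-negative cells and KLF3-GFP-positive cells (left) and in GFP-OE and KLF3-OE cells (right), with a dotted line at 0.1, the lowest value of the tables. The vertical lines of Srgn, Lgals2 and Spink1 are the longest in both panels, Lgals1 has no visible line on the left, and Lgals8 points down on the right.

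Srgn had 2.29 FPKM in KLF3-GFP-negative cells, against 1859.95 FPKM in KLF3-GFP-positive cells. This was a ratio of 812 in plain FPKM and a difference of 9.14 on the log2(FPKM + 1) scale, the highest of all genes tested in sorted cells. Its level moved from position 6994 to position 93 among the 13056 genes listed. In overexpressing cells, Srgn had 10.35 FPKM with GFP and 142.24 FPKM with KLF3, a 13.7-fold ratio and a difference of 3.66, the seventh highest of 11179. The control level was thus not near the floor in either experiment.

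The rest of the serglycin pathway was read from the enzymes that build its chains. For this and the following lists, counts stand beside the shares of all genes tested. These shares were 13.8% higher and 8.32% lower in sorted cells, and 6.60% higher and 10.1% lower in overexpressing cells. A count of 1 or 2 genes can lie near them and is given as a description. Of 22 genes for the linker and for chondroitin sulfate, 16 were listed and 8 tested in sorted cells, of which 3 were higher in KLF3-GFP-positive cells and 0 lower, with a median difference of 0.66. The 3 were B3gat3, which completes the linker (3.42 to 14.37 FPKM, difference 1.80), B4galt7, which adds its first galactose (1.54 to 4.50, difference 1.11), and the chondroitin sulfotransferase gene Chst12 (3.18 to 7.38 FPKM). In the overexpression experiment, 12 were tested and 0 passed the limit in either direction, with a median of 0.12. The nearest were the sulfotransferase gene Chst15 (0.44 to 1.81 FPKM, difference 0.96), the polymerizing factor gene Chpf (7.60 to 15.74, difference 0.96) and B3gat3 (17.32 to 32.11, difference 0.85).

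Among 20 genes for heparan sulfate and heparin, 8 were tested in sorted cells, and only Hs3st1, which adds a 3-O-sulfate, was past the limit, at 0.16 FPKM in KLF3-GFP-negative cells and 52.63 FPKM in KLF3-GFP-positive cells (difference 5.53). The median of the list was 0.43. Extl2 (0.88 to 2.40 FPKM, difference 0.85) and Sulf2 (3.71 to 6.90 FPKM, difference 0.75) came next. In the overexpression experiment, Hs3st1 was again the only gene of the 14 tested that was higher, at 1.57 FPKM with GFP and 11.84 FPKM with KLF3 (difference 2.32), while Ndst1, an N-deacetylase and N-sulfotransferase, was lower (1.88 to 0.21 FPKM, difference -1.25), as was the epimerase gene Glce (5.11 to 1.92 FPKM, difference -1.07). The median there was -0.27.

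Other proteoglycan core proteins, which sit at the cell surface or in the matrix, differed in direction among themselves. In sorted cells 4 of the 9 tested were higher and 2 lower, with a median of 0.85. Gpc3, a glypican, had 4.15 FPKM in KLF3-GFP-negative cells, against 49.43 FPKM in KLF3-GFP-positive cells (difference 3.29), the syndecan gene Sdc4 had 239.98 and 1269.98 FPKM (difference 2.40) and Hspg2, which encodes perlecan of basement membranes, had 0.58 and 5.48 FPKM (difference 2.04). In the overexpression experiment 1 of 15 was higher and 2 were lower, with a median of -0.10. Hspg2 was the higher gene (19.91 to 46.34 FPKM, difference 1.18), and the versican gene Vcan (10.08 to 2.67 FPKM, difference -1.59) and Gpc2 (4.73 to 1.54 FPKM, difference -1.17) were lower.

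Lgals2, the gene of galectin-2, stood at 0.10 FPKM in KLF3-GFP-negative cells, the lowest value of the table, and at 255.61 FPKM in KLF3-GFP-positive cells. Its plain ratio was at least 2556, the highest of all genes tested, and its difference of 7.87 on the log2(FPKM + 1) scale was the second highest. With GFP it had 2.73 FPKM and with KLF3 59.08 FPKM, a 21.6-fold ratio and a difference of 4.01, the fifth highest. The control was thus off the floor in the overexpression table.

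Lgals1, the gene of galectin-1 and the close neighbour of Lgals2, had the highest level of the 7 genes in KLF3-GFP-negative cells, at 186.32 FPKM, and 186.36 FPKM in KLF3-GFP-positive cells. The difference was 0.00 as deposited and ran from -0.07 to 0.03 under the alternatives, so no direction can be given. In the overexpression experiment it had 89.56 FPKM with GFP and 297.50 FPKM with KLF3, a 3.32-fold ratio and a difference of 1.72, with a range of 1.35 to 1.93 under the alternatives. Lgals1 was thus past the limit in 1 of the experiments, and the difference between them was not tested.

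Lgals3, the gene of galectin-3, had 19.56 FPKM in KLF3-GFP-negative cells, against 34.43 FPKM in KLF3-GFP-positive cells. The difference of 0.79 was inside the limit. With GFP it had 4.60 FPKM and with KLF3 9.68 FPKM, a plain ratio of 2.10 and a difference of 0.93. This value lay just inside the limit and passed it under 5 of 7 alternatives, at 1.06 to 1.21.

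The 2 tandem-repeat galectins, whose paired domains can bridge glycans, parted between the experiments. Lgals9 had 3.23 FPKM in KLF3-GFP-negative cells, against 10.67 FPKM in KLF3-GFP-positive cells (difference 1.46), and 9.94 FPKM with GFP and 11.40 FPKM with KLF3 (difference 0.18). Lgals8 was low in KLF3-GFP-negative cells, at 0.67 FPKM, against 3.07 FPKM in KLF3-GFP-positive cells (difference 1.29). With GFP it had 3.82 FPKM and with KLF3 1.79 FPKM, a ratio of 0.469 and a difference of -0.79, inside the limit. Lgals8 was thus higher in the first comparison and had a value below 0 in the second under all alternatives run, and this contrast was not tested. In GENCODE M21 its exons overlap those of Heatr1 on the opposite strand, and 3.87% of the 50-base stretches of its transcripts occur in Heatr1 or AC107765.2. In the deposited positions, Heatr1 and Lgals8 do not overlap and lie 0.738 kb apart. Heatr1 had 1.04 and 0.65 FPKM in the sorted cells and 20.45 and 10.23 FPKM in the overexpressing cells (difference -0.93), and what it adds to the value of Lgals8 was not tested.

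Within the galectin family, Lgals2 took a larger share of transcripts in KLF3-GFP-positive and KLF3-OE cells than in their controls. It was picked for its rise in these columns, so nothing is read from this. In KLF3-GFP-negative cells, Lgals1 took 85.5% of the summed FPKM of the 9 family genes listed and Lgals2 0.0459%. In KLF3-GFP-positive cells, Lgals2 took 51.6% and Lgals1 37.6%, and the family sum was 496 FPKM against 218 FPKM. In overexpressing cells Lgals1 stayed first, at 73.9% with GFP and 76.6% with KLF3, while Lgals2 took 2.25% and 15.2%, and the sum was 121 FPKM with GFP and 389 FPKM with KLF3. FPKM is per transcript length, so these shares can be compared between genes within a column.

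The remaining family genes were low in all 4 columns. Of the family list, 8 genes were tested in each table. In sorted cells 3 were higher (Lgals2, Lgals9, Lgals8) and 1 lower, with a median of 0.41, and in overexpressing cells 2 were higher (Lgals1, Lgals2) and 0 lower, with a median of 0.43. The lower gene was Lgals7, a galectin of stratified epithelia, with 3.06 FPKM in KLF3-GFP-negative cells and 0.69 FPKM in KLF3-GFP-positive cells (difference -1.26). It had 0.91 FPKM with GFP and 2.05 FPKM with KLF3 (difference 0.68). Lgals4, an intestinal galectin, had 1.25 and 0.95 FPKM in the sorted columns and 1.65 and 1.32 FPKM in the overexpression columns, and the galectin-like gene Lgalsl had 3.49 and 3.62 FPKM and 7.09 and 5.42 FPKM. Grifin, a lens galectin, stayed at or below 0.60 FPKM in all columns and Lgals12 was listed in overexpressing cells only, at 0.27 and 0.20 FPKM. Lgals3bp, whose product binds galectin-3, had 0.10 and 0.21 FPKM in sorted cells and 0.15 and 0.30 FPKM in overexpressing cells.

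The glycoproteins that galectins are known to bind were also followed. In sorted cells, 9 of 13 tested were higher and 2 lower, with a median of 1.48. The 3 with the largest differences were the laminin chains Lamb1 (2.04 to 82.79 FPKM, difference 4.78), Lama1 (0.62 to 41.87 FPKM, difference 4.73) and Lamc1 (13.56 to 188.45 FPKM, difference 3.70), which together form laminin-111 of embryonic basement membranes. In overexpressing cells 3 of 14 were higher, and they were the same 3 chains: Lama1 (6.38 to 39.69 FPKM, difference 2.46), Lamb1 (22.67 to 112.57 FPKM, difference 2.26) and Lamc1 (46.93 to 144.19 FPKM, difference 1.60). The 2 lower genes were Fn1, which encodes fibronectin (162.80 to 62.10 FPKM, difference -1.38), and Lamp2, a lysosomal membrane protein gene (19.88 to 8.45 FPKM, difference -1.14), and the median was -0.12. Lamp2 was higher in KLF3-GFP-positive cells, at 7.55 and 24.12 FPKM (difference 1.55).

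Enzymes that branch N-glycans and extend them with the lactosamine that galectins bind had 4 genes higher and 1 lower among 10 tested in sorted cells, with a median of 0.59. B4galt1, which adds the galactose of lactosamine, had 26.30 FPKM in KLF3-GFP-negative cells, against 159.72 FPKM in KLF3-GFP-positive cells (difference 2.56). The elongating enzyme gene B3gnt3 (0.36 to 3.77 FPKM, difference 1.81) and the branching enzyme gene Mgat2 (5.84 to 16.23 FPKM, difference 1.33) followed. In overexpressing cells 1 of 11 was higher and 1 lower, with a median of 0.15. B3gnt2, a main poly-lactosamine enzyme, had 11.30 FPKM with GFP and 0.14 FPKM with KLF3 (difference -3.43), the branching gene Mgat4b had 13.23 and 30.30 FPKM (difference 1.14), and B3gnt3 had 0.70 and 2.25 FPKM (difference 0.93).

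Galectin-8 and galectin-3 also mark damaged vesicles inside cells, where autophagy receptors gather. Of 9 autophagy receptors and partners tested in each table, 0 were higher and 1 was lower in each, with medians of 0.12 and -0.56. The counts of lower genes are near the shares of all genes tested, 8.32% and 10.1%. In sorted cells the lower gene was Calcoco2, at 16.99 FPKM in KLF3-GFP-negative cells and 2.89 FPKM in KLF3-GFP-positive cells (difference -2.21), followed by Nbr1 (4.47 to 8.94 FPKM, difference 0.86) and the kinase gene Ulk1 (3.12 to 1.38 FPKM, difference -0.79). In overexpressing cells it was Ulk1 (36.07 to 15.97 FPKM, difference -1.13), followed by Optn (6.48 to 3.13 FPKM, difference -0.86) and Becn1 (47.00 to 27.79 FPKM, difference -0.74).

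Spink1 (ENSMUSG00000024503, chr18:43728069-43737237 of mm10, minus strand) was already expressed in KLF3-GFP-negative cells at 43.64 FPKM and had 4728.73 FPKM in KLF3-GFP-positive cells. The ratio was 108, and the difference of 6.73 on the log2(FPKM + 1) scale was the fifth highest. Its level moved from position 1753 to position 30 of the 13056 genes, and it took 0.499% of all summed FPKM in KLF3-GFP-positive cells. In overexpressing cells it had 3.22 FPKM with GFP and 76.77 FPKM with KLF3, a 23.8-fold ratio and a difference of 4.20, the third highest. Among the 7 genes it thus had the highest level in KLF3-GFP-positive cells and the next to lowest in GFP-OE cells.

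Other serine protease inhibitors had 5 genes higher and 1 lower among 11 tested in sorted cells (median 0.86) and 2 higher and 0 lower among 11 in overexpressing cells (median 0.40). Serpinh1, a collagen chaperone of the serpin fold without inhibitory activity, led the list in both, at 18.43 FPKM in KLF3-GFP-negative cells and 430.41 FPKM in KLF3-GFP-positive cells (difference 4.47) and at 73.60 FPKM with GFP and 181.07 FPKM with KLF3 (difference 1.29). In sorted cells it was followed by Serpinb6c (3.16 to 30.75 FPKM, difference 2.93) and by Serping1, the complement C1 inhibitor gene (1.64 to 13.64 FPKM, difference 2.47). In overexpressing cells the Kazal-type gene Spink2 (0.65 to 2.70 FPKM, difference 1.17) and Spint2, an inhibitor of membrane-bound proteases (101.60 to 152.12 FPKM, difference 0.58), came next. Of 24 serine protease genes, the trypsin genes Prss1, Prss2, Prss3, Try4, Try5 and Try10 were not listed in either experiment. The list had 6 genes higher and 1 lower among 8 tested in sorted cells (median 1.38) and 1 higher and 0 lower among 8 in overexpressing cells (median 0.31). The lower gene was Cela1, an elastase gene (3.63 to 0.91 FPKM, difference -1.28). Htra1, a secreted serine protease, had the largest difference in both, from 1.70 to 73.62 FPKM (difference 4.79) and from 6.26 to 56.63 FPKM (difference 2.99). The tissue plasminogen activator gene Plat (0.14 to 2.93 FPKM, difference 1.79) and Prss8 (1.45 to 6.12 FPKM, difference 1.54) followed in sorted cells, and Klk1 (6.85 to 3.12 FPKM, difference -0.93) and Prss35 (1.31 to 2.67 FPKM, difference 0.67) in overexpressing cells.

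**Figure D2:**
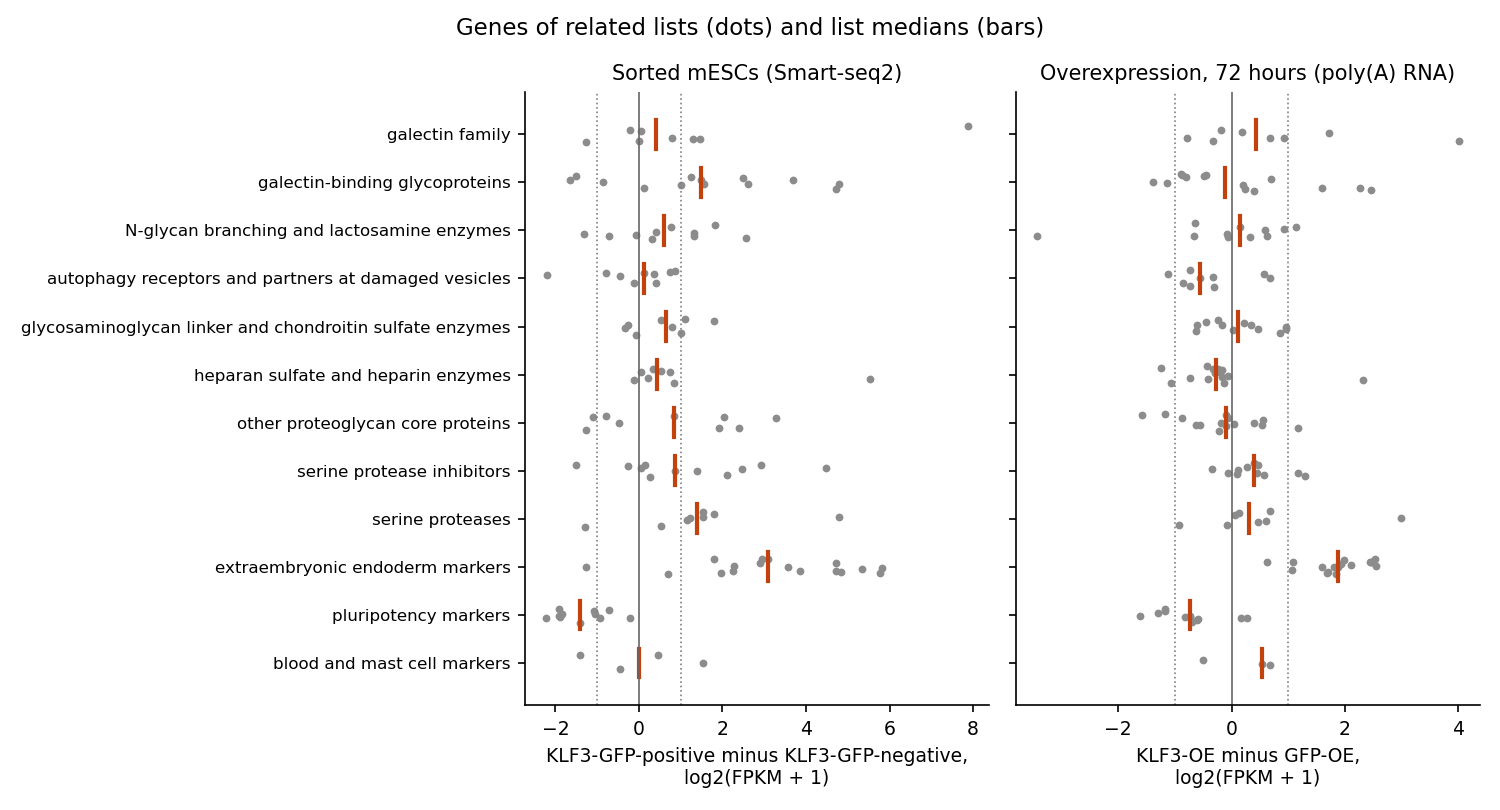
Differences on the log2(FPKM + 1) scale for the tested genes of 12 related lists in sorted cells (left) and overexpressing cells (right), with each gene as a dot (spread vertically for legibility), the list median as a bar and dotted lines at the 2-fold limit. The extraembryonic endoderm markers lie furthest to the right by median in both panels, at 3.08 and 1.88, while the median of the galectin family is 0.41 and 0.43.

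The order of the 7 genes by level differed between the 2 conditions of each experiment. In KLF3-GFP-negative cells it ran Lgals1, Spink1, Lgals3, Lgals9, Srgn, Lgals8, Lgals2 from high to low, and in KLF3-GFP-positive cells Spink1, Srgn, Lgals2, Lgals1, Lgals3, Lgals9, Lgals8. With GFP it ran Lgals1, Srgn, Lgals9, Lgals3, Lgals8, Spink1, Lgals2, and with KLF3 Lgals1, Srgn, Spink1, Lgals2, Lgals9, Lgals3, Lgals8. Since no spread is known, whether neighbours in these orders differ cannot be said, and the closest values included those of Srgn and Lgals9 with GFP (10.35 and 9.94 FPKM), Spink1 and Lgals2 with GFP (3.22 and 2.73 FPKM) and Lgals9 and Lgals3 with KLF3 (11.40 and 9.68 FPKM). The 3 picked genes summed to 46.0 FPKM in KLF3-GFP-negative cells and 6844 FPKM in KLF3-GFP-positive cells, which were 0.00509% and 0.722% of all FPKM. With GFP they summed to 16.3 FPKM and with KLF3 to 278 FPKM, or 0.00266% and 0.0333%. The libraries of the 2 experiments were made by different protocols, so levels were not compared across them.

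Side by side, the picked genes stood apart from the remaining galectins in both experiments. Of 8887 genes tested in both tables, 227 (2.55%) were past 2-fold higher in both, 13 (0.146%) were past 8-fold in both, and Srgn, Lgals2 and Spink1 were among these 13, as their choice required large rises. Past 16-fold in both there were 4 genes, which were Lgals2, Spink1, Glipr1 and S100g.

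**Figure D3:**
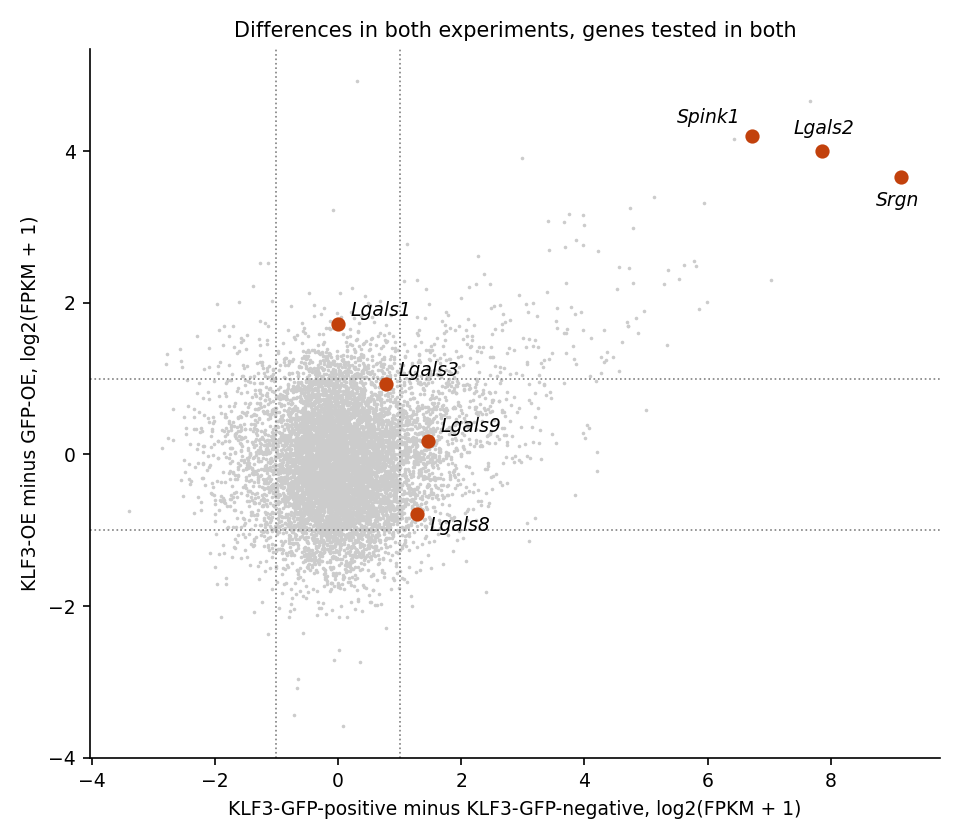
Differences on the log2(FPKM + 1) scale of the 8887 genes tested in both experiments, sorted cells on the horizontal and overexpressing cells on the vertical axis, with the 7 genes marked and dotted lines at the 2-fold limit. Srgn, Lgals2 and Spink1 lie at the upper right edge. Lgals1 lies at 0.00 on the horizontal and 1.72 on the vertical axis, and Lgals8 lies at 1.29 and -0.79.

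The genes most like each picked gene were taken by the Euclidean distance over the pair of differences, which rests on only 2 values per gene. Srgn, Lgals2 and Spink1 were picked for large rises in these same differences, so nothing is read from their nearness to each other. Nearest to Srgn were Lgals2 (distance 1.33), S100g (1.78), Spink1 (2.48), Dab2 (2.51) and Glipr1 (2.76). Nearest to Lgals2 were S100g (0.68), Spink1 (1.16), Srgn (1.33), Glipr1 (1.45) and Dab2 (1.90). Nearest to Spink1 were Glipr1 (0.30), S100g (1.05), Lgals2 (1.16), Cited1 (1.19) and Ctsh (1.79). S100g, which encodes the calcium-binding protein calbindin-D9k, had 0.100 and 223 FPKM in the sorted columns and 0.130 and 27.6 FPKM in the overexpression columns. Glipr1 had 0.100 and 93.7 FPKM and 0.770 and 30.7 FPKM, and Dab2, an endocytic adaptor gene, had 0.780 and 233 FPKM and 6.26 and 34.7 FPKM. The coactivator gene Cited1 had 1.02 and 123 FPKM and 1.80 and 26.8 FPKM, and the lysosomal protease gene Ctsh had 0.990 and 68.9 FPKM and 2.67 and 37.6 FPKM.

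The neighbours of these genes were read next, a step chosen after their values had been seen. Within 100 kb of Srgn, 6 protein-coding genes were listed, and 2 of them were past the limit in each experiment. Hkdc1, a hexokinase-like gene 71.3 kb away, was higher in both, at 0.10 and 3.87 FPKM in sorted cells (difference 2.15) and 0.65 and 2.99 FPKM in overexpressing cells (difference 1.27). Vps26a, a retromer gene 7.03 kb away, had 15.12 and 31.48 FPKM in sorted cells (difference 1.01) and -0.43 as its difference in overexpressing cells, and Supv3l1, a mitochondrial helicase gene 44.1 kb away, had differences of 0.08 and 1.23. Kif1bp, Ddx21 and Ddx50 lay inside the limit in both.

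Lgals2 overlaps Cdc42ep1 on the opposite strand, whose product binds the GTPase CDC42. Cdc42ep1 had 0.62 and 4.12 FPKM in sorted cells (difference 1.66) and 2.22 and 6.41 FPKM in overexpressing cells (difference 1.20). Its levels were far below those of Lgals2 in KLF3-GFP-positive and KLF3-OE cells, but above that of Lgals2 in KLF3-GFP-negative cells (0.62 and 0.10 FPKM) and near it in GFP-OE cells (2.22 and 2.73 FPKM). What each of the 2 genes adds to the values of the other was not tested, and this includes the differences of Cdc42ep1. In their transcripts the 2 genes share 0 stretches of 50 bases. An overlap shorter than 50 bases cannot give such a stretch, so nothing is read from this about their reads. For the overexpression libraries the paper names a directional kit. Whether reads were counted by strand is not given for either experiment in the sources used here. Gga1 and Sh3bp1, which lie between Lgals2 and Lgals1, had differences of 0.24 and -0.72 in sorted cells and 0.20 and 0.01 in overexpressing cells. Further out, Mfng was lower in sorted cells (4.62 to 0.57 FPKM, difference -1.84) and Triobp higher (3.11 to 7.99 FPKM, difference 1.13), and both lay inside the limit in overexpressing cells. For Spink1 no protein-coding gene was listed within 100 kb in either table. Around Lgals3, 0 of 4 neighbours tested in sorted cells passed the limit, and 1 of 5 was lower in overexpressing cells (Wdhd1, a replication gene, 19.76 to 5.90 FPKM, difference -1.59).

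**Figure D4:**
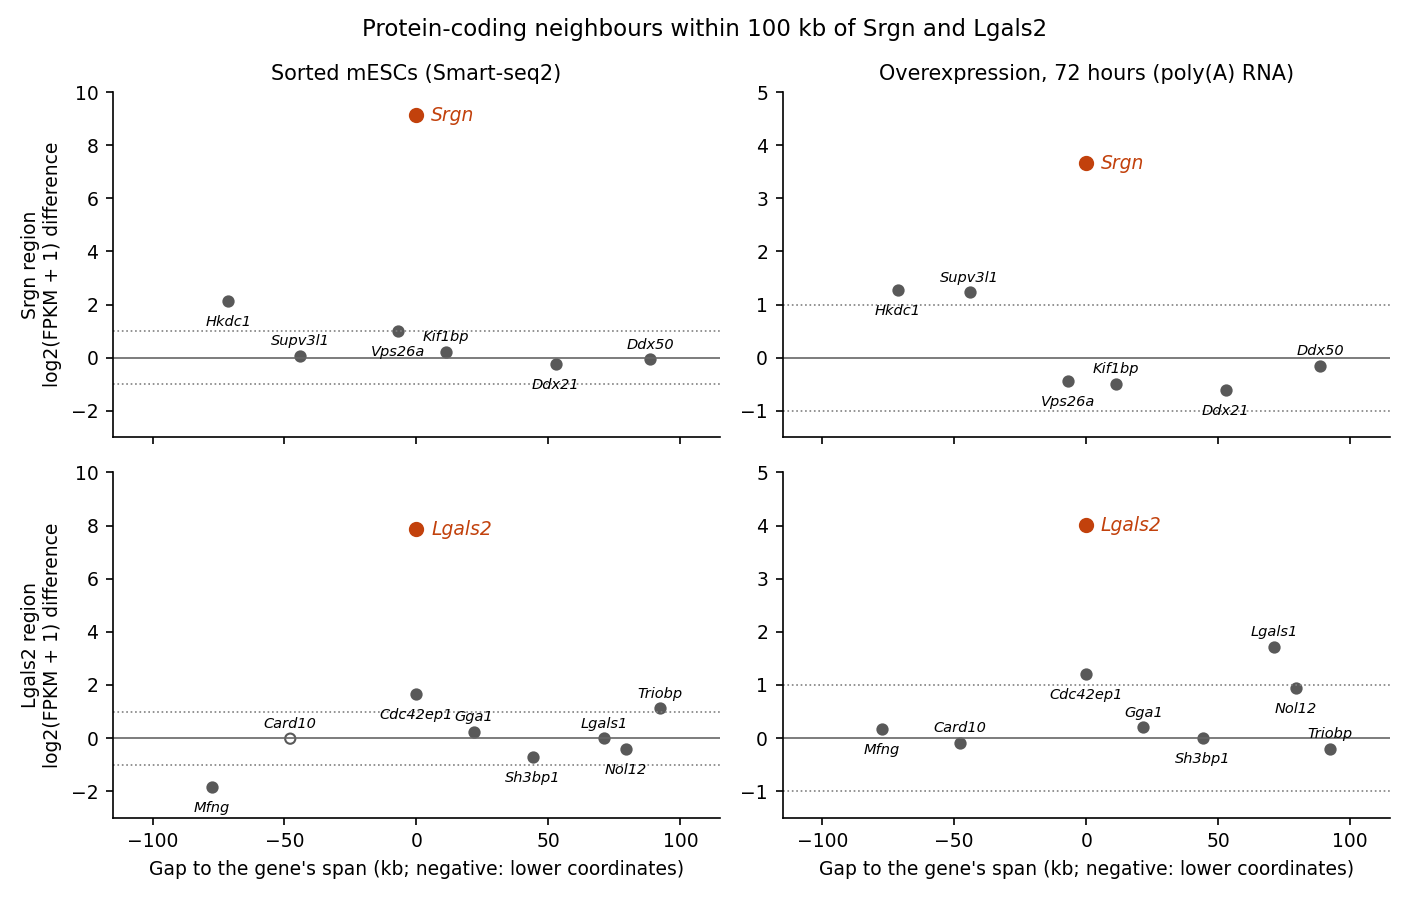
Differences on the log2(FPKM + 1) scale of listed protein-coding genes within 100 kb of Srgn (top) and Lgals2 (bottom), by the gap in kb to the gene's span (negative towards lower coordinates, 0 for an overlap), in sorted (left) and overexpressing cells (right). Filled points are genes tested, the open point is below the minimum mean, and no neighbour comes within 2 log2 units of Srgn or Lgals2 in either experiment.

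Most tested markers of another lineage were also higher in both experiments. Of 22 extraembryonic endoderm markers, 17 were tested in each table, with 15 higher and 1 lower in sorted cells (median 3.08) and 16 higher and 0 lower in overexpressing cells (median 1.88). Lama1, Col4a2, Cubn, Foxa2, Pdgfra, Sox7, Snai1 and Plat were below 1 FPKM in KLF3-GFP-negative cells. With GFP, Apoa1, Foxa2, Ttr, Rbp4, Sox7, Pdgfra and Snai1 were below 1 FPKM. Such genes reached the minimum mean only through the other column, so the filter favoured higher values among them. The summed FPKM of the listed markers was 479 in KLF3-GFP-negative cells and 3575 in KLF3-GFP-positive cells, and 1157 with GFP and 2238 with KLF3. These sums were mostly Apoe and Sparc. Apoe had 420.11 and 1995.36 FPKM in sorted cells, and 977.32 and 1503.49 FPKM in overexpressing cells (difference 0.62, inside the limit). Sparc had 33.46 and 981.01 FPKM in sorted cells, and 138.30 and 483.90 FPKM in overexpressing cells. Col4a1 (1.47 to 137.67 FPKM), Amn (2.39 to 184.90 FPKM) and Col4a2 (0.48 to 59.39 FPKM) had the largest differences in sorted cells, and Amn (1.18 to 11.74 FPKM), Apoa1 (0.63 to 8.41 FPKM) and Col4a1 (12.70 to 75.48 FPKM) in overexpressing cells. Apoa1 was the lower marker in sorted cells (4.16 to 1.14 FPKM, difference -1.27), so its direction differed between the experiments. The defining factors Gata6 (1.63 to 21.31 FPKM), Gata4 (1.07 to 23.42 FPKM) and Sox17 (2.76 to 53.15 FPKM) were detected in both sorted columns, and Foxa2, Hnf4a, Ttr and Cubn stood at the lowest value in KLF3-GFP-negative cells. With GFP and KLF3, Gata6 had 1.05 and 6.54 FPKM, Gata4 4.16 and 18.68 FPKM and Sox17 1.41 and 7.70 FPKM. The part of this lineage in the levels of Srgn, Lgals2 and Spink1 was not tested.

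Trophoblast markers had 3 genes higher and 1 lower of 6 tested in sorted cells (median 0.75, sum 39.5 and 399 FPKM) and 3 higher and 0 lower of 7 in overexpressing cells (median 0.83, sum 105 and 547 FPKM). These sums were mostly the keratins, with Krt18 at 12.72 and 183.07 FPKM and Krt8 at 18.30 and 206.34 FPKM in sorted cells, and at 36.62 and 339.57 FPKM and 26.27 and 176.36 FPKM in overexpressing cells. Tead4 (1.92 to 5.08 FPKM) was the other higher gene in sorted cells and Hand1 (0.83 to 4.16 FPKM) in overexpressing cells. In sorted cells the lower gene was Ascl2 (2.73 to 0.81 FPKM, difference -1.04), and Tfap2c (-0.94) and Eomes (0.44) lay inside the limit. In overexpressing cells Tfap2c (-0.95), Ascl2 (0.83), Tead4 (-0.59) and Eomes (0.13) lay inside it. Pluripotency markers, which define mESCs, were present in all columns, with 0 higher and 8 lower of 11 tested in sorted cells (median -1.40, sum 828 and 295 FPKM) and 0 higher and 4 lower of 12 in overexpressing cells (median -0.73, sum 2687 and 2041 FPKM). The largest differences were those of Tdgf1 (323.99 to 68.92 FPKM), Fgf4 (13.58 to 2.84 FPKM) and Sox2 (39.35 to 9.64 FPKM) in sorted cells and Prdm14 (11.86 to 3.20 FPKM), Nanog (254.52 to 102.59 FPKM) and Esrrb (137.73 to 60.31 FPKM) in overexpressing cells. Pou5f1 had 114.62 and 59.43 FPKM in sorted cells and 883.19 and 989.69 FPKM in overexpressing cells.

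The cell types best known for serglycin and SPINK1 had few markers listed, at low levels. Of 16 blood and mast cell markers, 7 were listed in sorted cells and 6 in overexpressing cells, and the mast cell protease genes Cpa3, Cma1, Mcpt4 and Tpsb2 and the pan-leukocyte gene Ptprc were in neither table. Their sum was 16.0 and 20.9 FPKM in sorted cells, with 1 higher and 1 lower of 4 tested (Cd68, 4.50 to 15.04 FPKM, and Coro1a, 6.10 to 1.65 FPKM, then Laptm5, 3.33 to 2.14 FPKM). In overexpressing cells it was 29.4 and 34.8 FPKM with 0 of 3 past the limit (Coro1a, 6.08 to 10.36, Laptm5, 9.60 to 14.42, and Cd68, 12.71 to 8.64 FPKM). Of 11 pancreatic acinar markers 3 were listed, summing to 3.86 and 1.93 FPKM in sorted cells, with 0 of 2 tested past the limit, and to 2.16 and 3.26 FPKM in overexpressing cells, where 1 was tested and lay inside it. The genes tested were Clps (2.48 to 0.85 FPKM) and Ctrl (1.24 to 0.84 FPKM) in sorted cells and Ctrl (0.78 to 1.80 FPKM) in overexpressing cells. Fibroblast and feeder markers summed to 0.680 and 2.07 FPKM over 3 genes listed in sorted cells, where 0 were tested. In overexpressing cells they summed to 4.77 and 5.66 FPKM over 5 genes, with 0 of 2 past the limit (Twist1, 0.92 to 1.25 FPKM, and Thy1, 2.72 to 3.14 FPKM).

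The labels were checked on Klf3 and on genes of the Y chromosome. Klf3 had 107.04 and 122.29 FPKM in sorted cells, where the reporter holds part of its coding sequence, and 58.66 FPKM with GFP and 47.76 FPKM with KLF3, where the study describes a codon-optimized transgene that need not count towards the native gene, so these values do not check the labels. In overexpressing cells, Eif2s3y had 30.87 FPKM with GFP and 1.67 FPKM with KLF3, Ddx3y had 3.34 and 0.10 FPKM, and Uty had 3.56 and 0.10 FPKM, whereas in sorted cells they had 15.61 and 16.55, 5.96 and 9.83, and 21.42 and 20.01 FPKM. The KLF3-OE and GFP-OE columns thus differed in Y-linked genes besides the transgene, and what this adds to the differences of the 7 genes was not tested.

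**Figure D5:**
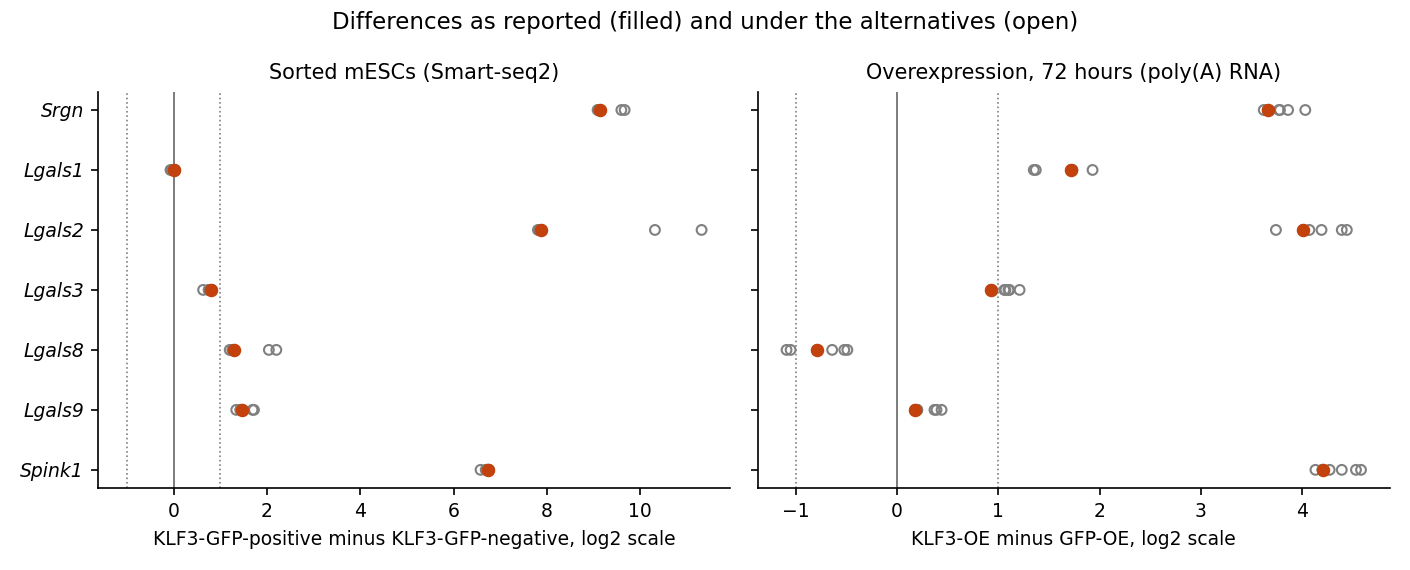
Differences of the 7 genes on the log2 scale as reported (filled) and under up to 7 alternative settings of pseudocount, minimum level and scaling (open), in sorted (left) and overexpressing cells (right), with dotted lines at the 2-fold limit. Srgn, Lgals2, Lgals8, Lgals9 and Spink1 on the left, where tested, and Srgn, Lgals1, Lgals2 and Spink1 on the right stay past the limit, and the open points of Lgals3 (1.06 to 1.21 under 5 settings) and Lgals8 (-1.05 and -1.09 under 2) on the right cross it.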

How the data were processed

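Gene expression was measured in 8 mESC samples of 4 conditions (2 per condition). The authors aligned reads to mm10 with STAR (version 2.6.0 per the submitters' processing notes; the paper gives another version), computed FPKM with Cufflinks (2.2.1) under a GENCODE guide whose release is not given in the sources used here, and deposited for each experiment 1 table with the mean FPKM of 2 replicates per condition, with 2 decimals and no value below 0.1; protein-coding genes are listed. The replicates are labelled biological. Columns not matched to a condition numbered 0. Depth and replicate spread are unknown, so no test, SD or interval was computed.

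Samples were grouped by their labels. Differences are log2(FPKM + 1) of KLF3-GFP-positive minus KLF3-GFP-negative or KLF3-OE minus GFP-OE, where the 2 columns averaged 1 FPKM or more ("tested"), with a limit of 2-fold on this scale ("higher", "lower"). A gene below 1 FPKM in 1 column reached the minimum average only through the other column, which favours 1 direction. Of identifiers listed at several loci, the locus with the highest level was kept. The analysis used Python 3.11.15, pandas 2.3.3, numpy 2.4.6 and statsmodels 0.14.6, and figures matplotlib 3.10.9, and the scripts were tested on simulated data. Named were the 7 genes, the listed galectin family genes, the 3 tested genes with the largest absolute difference in each of the other lists of 16 in each experiment, and the 5 nearest genes of each picked gene; further markers, Lamp2, Cela1, the trypsin genes, label checks and neighbours were named after their values were seen. The 7 genes and the lists were chosen with earlier results of these data known. A marker of these lists is not reported here and was left out of its list's counts and sums. Gene models and shared 50-base stretches came from GENCODE M21, and upstream windows from RefSeq (GRCm38.p6). The 7 alternatives run were pseudocounts of 0.1 and none, no minimum, a mean of at least 5 FPKM, median-ratio scaling, quantile normalization and removal of a lowess trend (fraction 0.3) with genomic span.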

Additional observations from a re-analysis of the deposited data

How the results depend on the processing

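The count of genes past 2-fold was 5 in sorted cells under 6 of the 7 alternatives and 4 with a mean of at least 5 FPKM, where Lgals8 was no longer tested. In overexpressing cells it was 4, and 4 to 6 under the alternatives: 5 with median-ratio scaling, quantile normalization or the span trend removed, where Lgals3 passed, and 6 with a pseudocount of 0.1 or none, where Lgals3 passed as higher and Lgals8 as lower (-1.05 and -1.09). Of 96 values of single genes, 85 kept their side of the limit and moved by at most 1.5 times, 11 did not, and 0 changed direction among the values past the limit. Lgals2 in sorted cells was 10.32 and 11.32 and Lgals8 2.04 and more with a pseudocount of 0.1 and none, which act on values near the floor by construction. For Lgals3 the cause was not tested. Ranges were 9.09 to 9.67 for Srgn, 6.58 to 6.76 for Spink1 and 7.81 to 11.32 for Lgals2 in sorted cells, and 3.62 to 4.03, 4.13 to 4.58 and 3.74 to 4.44 in overexpressing cells. No paired analysis was possible because each condition was deposited as 1 mean of its replicates, and leaving out a replicate could not be run for the same reason. Without depth, the precision of low values such as those of Lgals8 cannot be given.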
